A study of Mus musculus with 79 samples.

Results

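The glutathione S-transferases are a family of enzymes, and 10 of their genes were chosen by name: Gsta1, Gsta2, Gsta3, Gsta4, Gstm1, Gstm2, Gstp1, Gstt1, Gsto1 and Mgst1. These genes were chosen with earlier results of these data known. Their expression was described in whole lung RNA of 79 mice, 1 microarray per mouse, in a table of 31350 entries. Of the 10, 7 matched an entry by transcript identifier, and each of these had a single entry: Gsta1 (NM_008181), Gsta3 (NM_001077353), Gsta4 (NM_010357), Gstm1 (NM_010358), Gstp1 (NM_013541), Gsto1 (NM_010362) and Mgst1 (NM_019946). Expression of Gsta2, Gstm2 and Gstt1 was not analysed here, and only their promoters were searched. The mice were C57BL/6J males and females aged 5 to 7 weeks, either wild type (WT) or littermates that overexpressed Scnn1b, the β subunit of the epithelial sodium channel, in airway epithelial cells (βENaC mice, BENaC in the labels). They were exposed to the smoke of 6 research cigarettes a day or to room air (sham), for 1 day or for 5 days in a row, and lungs were taken 4 hours after the last exposure. This gave 16 groups of 4 to 6 mice by genotype, exposure, sex and duration. After 1 day there were 20 mice of each exposure, and after 5 days 19 with smoke and 20 with sham exposure.

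Glutathione S-transferases join the tripeptide glutathione to electrophiles, among them aldehydes and epoxides formed in smoke and by lipid peroxidation. The conjugates are pumped out of the cell and broken down to mercapturates. Several of these genes are known targets of NRF2, a transcription factor released from KEAP1 by electrophiles, and some also respond to the aryl hydrocarbon receptor (AHR), which binds polycyclic aromatic compounds. In the airways, non-ciliated club cells are rich in these enzymes.

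The labelled genotype was checked with Scnn1b, whose log2 intensity was 8.98 ± 0.21 (SD, n = 40) in WT mice. In βENaC mice it was 11.69 ± 0.10 (SD, n = 39), and the ranges were separate. For 13 smoke-exposed WT mice 1 free-text label named the βENaC genotype, against their titles, and their Scnn1b values lay within the WT range of 8.42 to 9.47. Array medians ran from 4.44 to 4.55. All lung cell types are pooled in this RNA, so fewer cells of a type and less RNA per cell cannot be told apart. A log2 intensity depends on the probes of its gene, so levels were compared between mice and not between genes.

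Promoters are shown because 5 of the 7 measured members were called as higher after smoke, as given further on, and because NRF2 and AHR each have a short core sequence that can be looked for. The 250 bases before the transcription start were searched on both strands for TGACNNNGC, the core of the antioxidant response element to which NRF2 binds with small MAF proteins, and for GCGTG, the core of the dioxin response element to which AHR binds. The 2 motifs can overlap, for example where the first one ends in CACGC, but no window of a member held both. Sequences are from RefSeq (GRCm38.p6), 5′ to 3′ towards the gene, with matches to either motif in capitals. A window was found for 9 of the 10 genes, and Gsta4 had none.
Gsta1 (chr9:78230419-78230668, plus strand): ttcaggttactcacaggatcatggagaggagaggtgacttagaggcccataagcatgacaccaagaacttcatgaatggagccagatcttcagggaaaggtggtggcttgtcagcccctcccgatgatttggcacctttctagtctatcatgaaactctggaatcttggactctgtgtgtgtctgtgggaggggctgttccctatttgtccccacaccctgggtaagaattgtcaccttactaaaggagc
Gsta3 (chr1:21240335-21240584, plus strand): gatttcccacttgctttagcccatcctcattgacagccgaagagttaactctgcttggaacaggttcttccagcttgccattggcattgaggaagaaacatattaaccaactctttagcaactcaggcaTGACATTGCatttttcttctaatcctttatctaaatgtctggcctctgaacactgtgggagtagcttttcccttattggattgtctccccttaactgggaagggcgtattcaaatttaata
Gstm1 (chr3:108017974-108018223, minus strand): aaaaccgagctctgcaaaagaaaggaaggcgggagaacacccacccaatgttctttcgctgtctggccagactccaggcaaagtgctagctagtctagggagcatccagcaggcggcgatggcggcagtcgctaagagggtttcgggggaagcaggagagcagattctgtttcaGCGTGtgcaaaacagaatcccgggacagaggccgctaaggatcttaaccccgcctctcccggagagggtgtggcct
Gstp1 (chr19:4037913-4038162, minus strand): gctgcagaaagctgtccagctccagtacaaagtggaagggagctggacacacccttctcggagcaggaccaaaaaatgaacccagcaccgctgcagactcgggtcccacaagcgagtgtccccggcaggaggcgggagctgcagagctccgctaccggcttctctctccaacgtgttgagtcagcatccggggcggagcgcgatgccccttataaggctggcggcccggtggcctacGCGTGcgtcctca
Mgst1 (chr6:138140277-138140526, plus strand): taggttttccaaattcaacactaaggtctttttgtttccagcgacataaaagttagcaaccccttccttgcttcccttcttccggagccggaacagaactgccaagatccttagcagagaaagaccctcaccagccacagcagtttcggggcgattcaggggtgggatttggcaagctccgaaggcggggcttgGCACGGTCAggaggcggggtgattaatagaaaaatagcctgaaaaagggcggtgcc
The antioxidant core was in 2 of the 9 genes, Gsta3 at -121 to -113 and Mgst1 at -56 to -48 on the opposite strand. It was in 11.5% of all 27025 genes with a window (10.2% of 32851 windows). The dioxin core was in 3 of the 9, Gsta2 (expression not analysed), Gstm1 and Gstp1, and in 30.9% of all genes (28.2% of windows). Gstm1 has a second annotated start whose window holds the same match, and the second window of Mgst1 held neither motif. Gsta1, which had the largest smoke difference of the measured members after 1 day, held neither motif in these 250 bases, and neither did Gsto1. Near forms of the motifs and bases outside these 250 were not searched, so a gene without a match may still have a site. The Gstp1 window holds tgagtcagc, which has G where the antioxidant core has C and was not counted. A match does not show that a site is used.

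Smoke raised 4 of the 7 members after 1 day (Gsta1, Gsta4, Gsto1 and Gstp1) and 5 of the 7 after 5 days (the same 4 and Gsta3), and lowered none. A gene was called when limma's adjusted p was below 0.05 and the difference larger than 0.379 on the log2 scale, which is 1.3-fold. Over all 31350 genes, 1.07% were called after 1 day and 1.15% after 5 days, and 0.485% and 0.577% were called as higher in smoke-exposed mice. As the members were chosen with earlier results known, these shares give a scale and not a test. By adjusted p alone, 6 of the 7 were higher after 1 day, where 5.03% of all genes were, and all 7 after 5 days, where 3.17% of all genes were. The median difference of the 7 was 0.45 after 1 day and 0.49 after 5 days, against 0.01 and -0.0018 over all genes.

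Gsta1, an alpha-class enzyme that conjugates a wide range of electrophiles, had the largest difference after 1 day. Its log2 intensity in sham-exposed mice ran from 3.62 to 4.59 with a median of 4.10, and in smoke-exposed mice from 4.61 to 6.72 with a median of 5.77. The lowest smoke-exposed value exceeded the highest sham-exposed one, which held for 0.0287% of all genes. The difference was 1.63 ± 0.12 (SE), or 3.10-fold, with an adjusted p of 3.1e-13. After 5 days the sham-exposed mice ran from 3.43 to 4.89 with a median of 4.20, and the smoke-exposed mice from 4.11 to 6.03 with a median of 4.70. The groups then overlapped, with 7 of the 19 smoke-exposed mice above all sham-exposed mice. The difference was 0.58 ± 0.13 (SE), with an adjusted p of 0.00296. The sham medians of Gsta1 lay below the median of every array, a range where RMA intensities can understate fold changes, and the neighbouring near-identical genes noted further on can share probe signal with Gsta1.

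Gsta3, the alpha-class enzyme known in mice for conjugating the epoxide of aflatoxin, showed the opposite order of the durations. After 1 day it ran from 8.17 to 9.54 with a median of 9.11 in sham-exposed mice and from 8.62 to 9.84 with a median of 9.45 in smoke-exposed mice. Only 8 of the 20 smoke-exposed mice lay above all sham-exposed mice. Its difference of 0.32 ± 0.08 (SE) had an adjusted p of 0.00612 but was below 1.3-fold. After 5 days it ran from 8.02 to 9.52 with a median of 9.01 in sham-exposed mice and from 8.54 to 10.35 with a median of 9.80 in smoke-exposed mice. The smoke group lay above all sham-exposed mice in 16 of 19 animals. The difference was 0.82 ± 0.09 (SE), or 1.76-fold, with an adjusted p of 2.51e-08, the largest of the 7 after 5 days.

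Gsta4, the alpha-class enzyme specialised in conjugating the lipid peroxidation product 4-hydroxynonenal, was raised to a similar degree at both durations. Its values after 1 day ran from 8.74 to 9.44 (median 9.24) in sham-exposed and from 9.29 to 10.26 (median 9.77) in smoke-exposed mice. After 5 days they ran from 8.66 to 9.55 (median 9.28) and from 9.03 to 10.10 (median 9.75). The groups overlapped at both durations, with 17 of 20 and 16 of 19 smoke-exposed mice above the sham range. The differences were 0.62 ± 0.06 (SE, adjusted p = 2.41e-09) after 1 day and 0.52 ± 0.06 (SE, adjusted p = 1.06e-07) after 5 days.

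**Figure D1:**
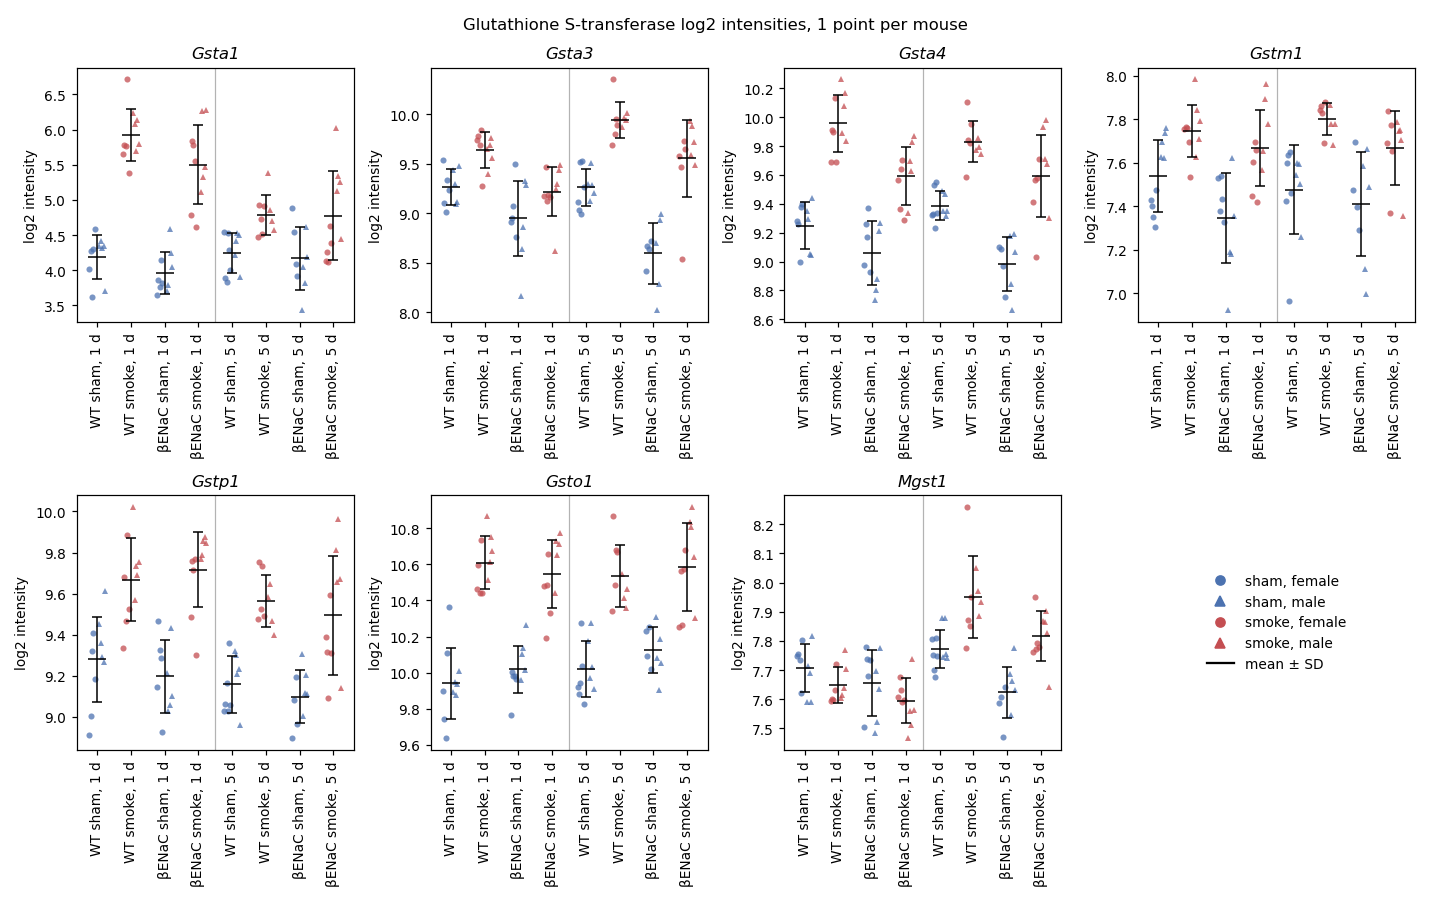
Log2 intensity of each of the 7 measured members (y axis) in every mouse, by genotype, exposure and duration (x axis), with females as circles and males as triangles and the mean ± SD of each group in black. Sham-exposed mice are blue and smoke-exposed mice red, and the red points of Gsta1 after 1 day all lie above the blue ones, between 4.61 and 6.72.

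Among the other cytosolic classes, Gsto1 and Gstp1 were called at both durations and Gstm1 at neither. Gsto1, the omega-class enzyme known for reducing methylated arsenic and dehydroascorbate, ran from 9.64 to 10.36 (median 9.97) in sham-exposed and from 10.19 to 10.87 (median 10.60) in smoke-exposed mice after 1 day. After 5 days it ran from 9.83 to 10.31 (median 10.05) and from 10.25 to 10.92 (median 10.56). In both sets most mice of 1 group lay outside the range of the other, 18 of 20 smoke-exposed mice after 1 day and 16 of 19 after 5 days. The differences of Gsto1 were 0.60 ± 0.05 (SE, adjusted p = 1.35e-11) and 0.49 ± 0.06 (SE, adjusted p = 1.1e-07).

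Gstp1 is the pi-class enzyme, abundant in airway epithelium. It ran from 8.91 to 9.61 (median 9.28) in sham-exposed and from 9.30 to 10.02 (median 9.75) in smoke-exposed mice after 1 day. After 5 days it ran from 8.90 to 9.36 (median 9.11) and from 9.09 to 9.96 (median 9.52). The groups overlapped at both durations. The differences were 0.45 ± 0.06 (SE, adjusted p = 3.52e-07) and 0.41 ± 0.06 (SE, adjusted p = 2.47e-06), 1.37-fold and 1.32-fold and thus just past the fold threshold.

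Gstm1, a mu-class enzyme active on epoxides, ran from 6.92 to 7.76 (median 7.43) in sham-exposed and from 7.42 to 7.99 (median 7.70) in smoke-exposed mice after 1 day. After 5 days it ran from 6.96 to 7.70 (median 7.50) and from 7.36 to 7.88 (median 7.78). Its differences of 0.26 ± 0.05 (SE, adjusted p = 0.000516) and 0.29 ± 0.06 (SE, adjusted p = 0.000835) passed the adjusted p but were below 1.3-fold.

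Mgst1, the membrane-bound microsomal member, had the smallest differences. After 1 day it ran from 7.48 to 7.82 (median 7.70) in sham-exposed and from 7.47 to 7.77 (median 7.61) in smoke-exposed mice, a difference of -0.06 ± 0.03 (SE, adjusted p = 0.217). After 5 days it ran from 7.47 to 7.88 (median 7.72) and from 7.64 to 8.26 (median 7.87), a difference of 0.19 ± 0.03 (SE, adjusted p = 1.00e-04) that is 1.14-fold. Mgst1 was the only one of the 7 whose mean was lower in smoke-exposed mice at either duration.

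**Figure D2:**
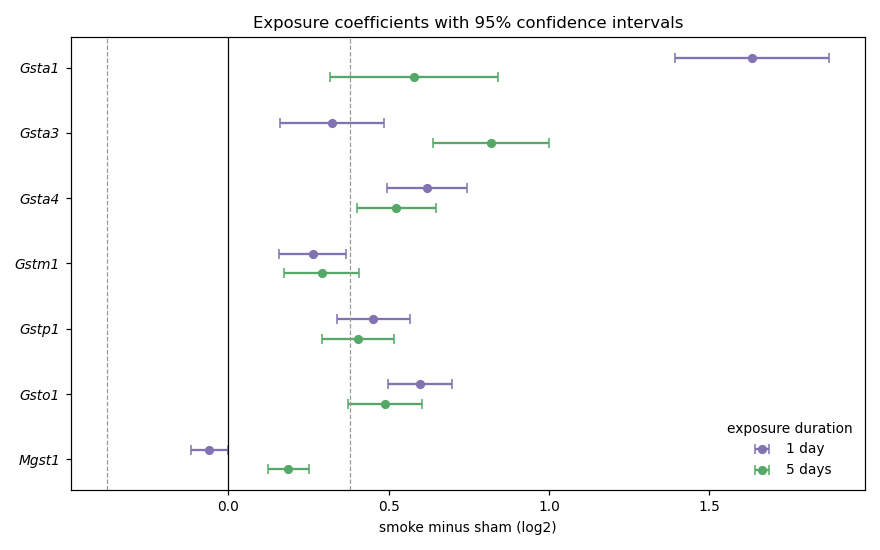
Smoke minus sham difference of each measured member on the log2 scale (x axis) with 95% confidence intervals from limma, after 1 day (purple, 20 against 20 mice) and 5 days (green, 19 against 20 mice). Dashed lines mark 1.3-fold, and Gsta1 moves from 1.63 after 1 day to 0.58 after 5 days while Gsta3 moves from 0.32 to 0.82.

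The smoke difference was unequal after 1 and 5 days for 2 of the 7 members, Gsta1 and Mgst1. In all 79 mice the exposure by duration term (5 days minus 1 day) was -1.06 ± 0.19 (SE, adjusted p = 0.00196) for Gsta1 and 0.23 ± 0.05 (SE, adjusted p = 0.00835) for Mgst1. Over all genes 0.612% passed this test, 0.303% with a smaller and 0.309% with a larger difference after 5 days. The sham-exposed means of Gsta1 were 4.08 ± 0.32 (SD, n = 20) after 1 day and 4.21 ± 0.36 (SD, n = 20) after 5 days, and the smoke-exposed means were 5.71 ± 0.51 (SD, n = 20) and 4.78 ± 0.49 (SD, n = 19). For Gsta3 the term was 0.45 ± 0.16 (SE) with an adjusted p of 0.177, and 0.49 with an adjusted p of 0.0205 when genotype and sex were added to the model. When p-values were adjusted within the pooled exposure-response genes alone, its adjusted p was 0.0225. For Gsta4, Gstm1, Gstp1 and Gsto1 the term lay between -0.12 and 0.02, with adjusted p from 0.682 to 0.964. Whether mice of both durations were exposed, and their arrays run, together is not given in the sources used here.

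Within each genotype, sex and duration (8 comparisons of 4 to 6 mice per group), Gsta3, Gsta4, Gstm1, Gstp1 and Gsto1 were higher in the smoke-exposed mean in 8 of 8, Gsta1 in 7 of 8 and Mgst1 in 4 of 8. All smoke-exposed mice lay above all sham-exposed mice in 7 of the 8 for Gsto1, 6 for Gsta4, 5 for Gsta1, 3 each for Gsta3, Gstm1 and Gstp1, and 2 for Mgst1. Of all genes, this held in WT mice after 1 day for 0.743% (females) and 2.19% (males), and in βENaC mice for 1.83% (females) and 1.59% (males). After 5 days the shares of all genes were 0.619% and 2.65% in WT and 1.31% and 1.43% in βENaC mice, females first. The exception for Gsta1 was βENaC females after 5 days. Their smoke-exposed mice had log2 intensities of 4.14, 4.27, 4.11, 4.63 and 4.39, and their sham-exposed mice 4.89, 4.54, 4.09 and 3.92. These values overlapped, with a mean difference of -0.05 ± 0.25 (SE). In βENaC males after 5 days the smoke-exposed values were 6.03, 5.13, 5.34, 5.26 and 4.45 and the sham-exposed values 3.43, 4.04, 3.81, 4.62 and 4.18. There 4 of the 5 smoke-exposed mice lay above all sham-exposed males, and the difference was 1.22 ± 0.24 (SE).

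**Figure D3:**
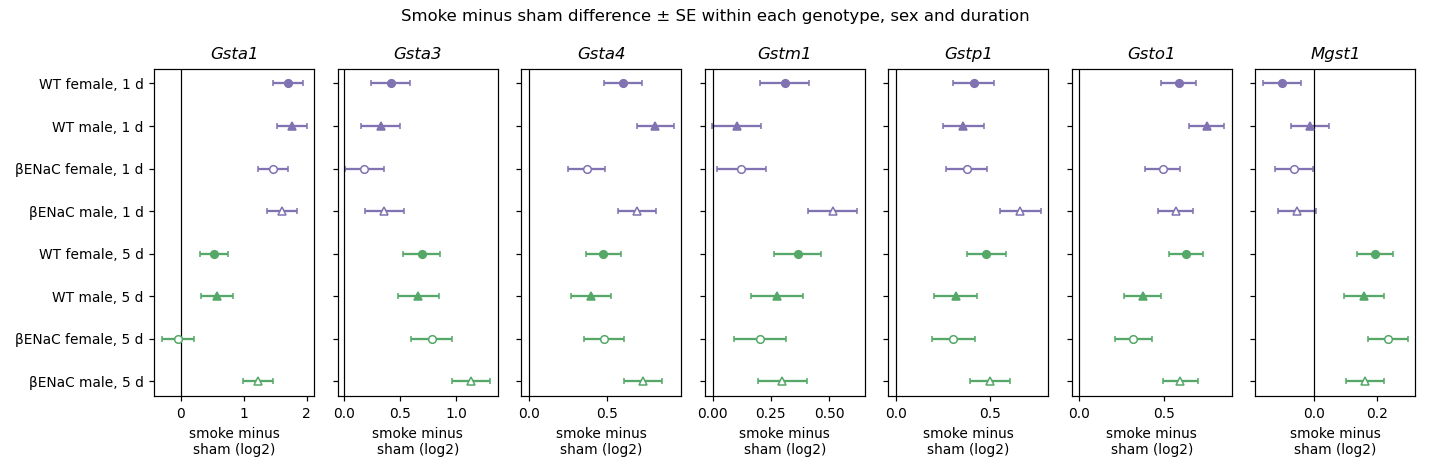
Smoke minus sham difference ± SE on the log2 scale (x axis, separate scale per gene) within each genotype, sex and duration (y axis), with WT filled, βENaC open, females as circles, males as triangles, 1 day in purple and 5 days in green. Gsta1 lies between 1.47 and 1.76 in all 4 comparisons after 1 day and near 0 in βENaC females after 5 days, and Mgst1 lies below 0 after 1 day and above 0 after 5 days.

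No member passed a test of whether its smoke difference depended on genotype or sex, at either duration. In limma's fits each of the 2 interaction terms was past an adjusted p of 0.05 for 0.00638% of all genes after 1 day and for 0% after 5 days. The smallest unadjusted p among the members was 0.01, for the exposure by sex term of Gsta1 after 5 days. That term was 0.66 on the log2 scale, larger in males, with a 95% confidence interval of 0.17 to 1.15 and an adjusted p of 1.00. The exposure by sex term of Gsta4 after 1 day, 0.26 with an interval of 0.03 to 0.50, was the other below 0.05 before adjustment, with an adjusted p of 0.762. For Gsta3 the exposure by genotype term was -0.10 (interval -0.43 to 0.23) after 1 day and 0.27 (interval -0.08 to 0.62) after 5 days. These intervals are wide beside the smoke differences themselves.

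Gsta3 was the 1 member called for genotype, and only after 5 days. Genotype differences are given as βENaC minus WT, the reverse of the sign used by the study. After 5 days Gsta3 ran from 8.99 to 10.35 (median 9.52) in WT and from 8.02 to 9.93 (median 8.99) in βENaC mice, with 10 of the 19 βENaC mice below every WT mouse. The difference was -0.53 ± 0.09 (SE, adjusted p = 4.94e-05), or 0.691-fold. Over all genes 2.52% were called for genotype after 5 days and 1.54% after 1 day, and 0.651% and 0.418% were called as lower in βENaC mice. After 1 day Gsta3 ran from 9.01 to 9.84 (median 9.45) in WT and from 8.17 to 9.49 (median 9.17) in βENaC mice. That difference of -0.37 ± 0.08 (SE, adjusted p = 0.00241) was just under 1.3-fold, and went past it when each array was centred on its median (-0.38) or when any 1 of 8 mice was left out. In sham-exposed mice alone it was -0.32, and its adjusted p rose to as much as 0.347 over the alternative limma fits.

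Gsta4 was also lower in βENaC mice by adjusted p, by -0.28 ± 0.06 (SE, adjusted p = 0.0033) after 1 day and -0.33 ± 0.06 (SE, adjusted p = 0.000227) after 5 days, both below 1.3-fold. By adjusted p alone 2.29% of all genes were lower in βENaC mice after 1 day and 5.33% after 5 days. The values of Gsta4 after 5 days ran from 9.23 to 10.10 in WT and from 8.66 to 9.98 in βENaC mice, and 10 of the 19 βENaC mice lay below all WT mice. In sham-exposed mice alone the 5-day difference of Gsta4 was -0.40 and past both thresholds. The 1-day difference in sham-exposed mice alone was -0.19, smaller than in all mice. Over the alternative limma fits the adjusted p of the 1-day difference rose to as much as 0.406. Mgst1 differed by -0.14 ± 0.03 (SE, adjusted p = 0.00184) after 5 days. For Gsta1, Gstm1, Gstp1 and Gsto1 the genotype differences lay between -0.33 and 0.07, with adjusted p from 0.105 to 0.972.

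Markers of club cells moved with genotype too. Of 5 measured markers, 4 were lower in βENaC mice by adjusted p at both durations, Cyp2f2, Cldn10, Gabrp and Scgb1a1, and Scgb3a1 was higher. After 5 days the differences were -0.39 for Cyp2f2, -0.53 for Cldn10, -0.27 for Gabrp, -0.07 for Scgb1a1 and 0.17 for Scgb3a1. The mean of the 5 ran from 10.52 to 10.90 in WT and from 10.08 to 10.70 in βENaC mice after 5 days. By adjusted p, 3 of 5 endothelial markers were also lower in βENaC mice at both durations. After 5 days 3 of 4 alveolar type 1 markers were lower too. Alveolar type 2 markers were higher by adjusted p, 2 of 7 after 1 day and 3 after 5 days. Of 5 alveolar macrophage markers 2 were called as higher and 2 as lower at both durations. Fibroblast markers were higher by adjusted p in 3 of 6 after 1 day and lower in 2 after 5 days. The part of these markers in the lower Gsta3 and Gsta4 of βENaC mice was not tested. With smoke, 1 of the 5 club cell markers was higher and 2 lower by adjusted p after 1 day, and 2 were higher after 5 days. The largest difference after 5 days was that of Scgb3a1 with 0.59 ± 0.05 (SE, adjusted p = 3.23e-10). The club cell marker mean ran from 10.22 to 10.66 in sham-exposed and from 10.30 to 10.60 in smoke-exposed mice after 1 day, and from 10.08 to 10.81 and from 10.18 to 10.90 after 5 days. Averaged over mice it was 10.54 ± 0.11 (SD, n = 20) with sham and 10.47 ± 0.08 (SD, n = 20) with smoke after 1 day. After 5 days it was 10.50 ± 0.16 (SD, n = 20) and 10.67 ± 0.16 (SD, n = 19). Its part in the smoke differences was not tested either. Of 6 ciliated cell markers 2 were lower with smoke by adjusted p after 1 day, where 1388 of all 31350 genes were. All 6 differences were below 0 after 1 day and above 0 after 5 days, when none passed. Of the 6 goblet cell markers, 4 were called as higher in βENaC mice at both durations. Of all 31350 genes 353 were called as higher in βENaC mice after 1 day and 587 after 5 days. The 4 measured erythroid markers were called as higher in smoke-exposed mice after 5 days. Also called after 5 days were lower fibroblast markers in 3 of 6 (Col1a1, Col3a1 and Tcf21, list median -0.32), a higher heart muscle marker in 1 of 4 (Tnnt2, 0.40), and goblet cell markers in both directions (Agr2, 0.67, and Clca3, -1.61). After 1 day 1 of 5 neutrophil markers was called as lower (Retnlg, -0.66), with a list median of -0.51. By adjusted p alone 3 of 5 endothelial markers were lower after 5 days (Pecam1, Cldn5 and Tie1). Of all 31350 genes 185 were called as lower in smoke-exposed mice after 1 day and 181 after 5 days. By adjusted p alone 1055 were lower after 5 days. The part of these markers in the smoke differences was not tested.

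**Figure D4:**
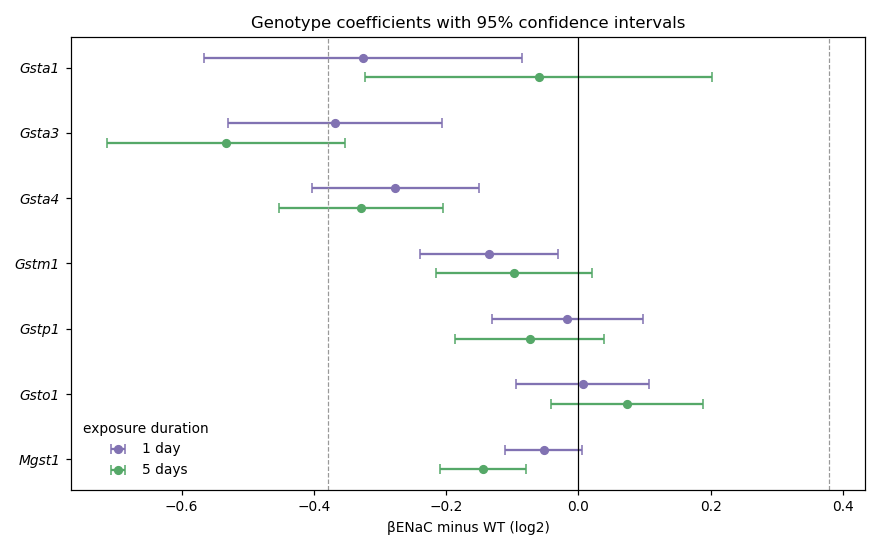
βENaC minus WT difference of each measured member on the log2 scale (x axis) with 95% confidence intervals from limma, after 1 day (purple) and 5 days (green), with 1.3-fold as dashed lines. Gsta3 at -0.37 and -0.53 and Gsta4 at -0.28 and -0.33 have intervals that leave out 0 at both durations.

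No member was called for sex at either duration, where 0.836% of all genes were called after 1 day and 0.198% after 5 days. By adjusted p alone none of the 7 passed in limma's fits, where 9.89% and 0.616% of all genes did, and by unadjusted p Gstp1 and Gsto1 after 1 day and Gstp1 after 5 days were below 0.05. The largest difference, male minus female, was 0.24 ± 0.13 (SE, adjusted p = 0.501) for Gsta1 after 5 days. All 5 other positive differences after 5 days lay between 0.04 and 0.11.

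Of 28 other family members and relatives listed, 22 were measured, and 1 of these was called for smoke at each duration, Gstp2, the near neighbour of Gstp1 on chromosome 19. Gstp2 was higher in smoke-exposed mice by 0.46 ± 0.05 (SE, adjusted p = 2.36e-09) after 1 day and 0.48 ± 0.05 (SE, adjusted p = 6.76e-09) after 5 days. Because Gstp1 and Gstp2 are close copies whose probes may share signal, their changes cannot be counted as separate. By adjusted p alone smoke-exposed mice had more of 2 and less of 4 of the 22 after 1 day, and more of 4 and less of none after 5 days. Of all 31350 genes 1388 were lower by adjusted p alone after 1 day and 1055 after 5 days. The lower ones after 1 day were Gstm5 (-0.19), Gstk1 (-0.20), Gstz1 (-0.20) and Alox5ap (-0.27). The median smoke difference of the 22 was 0.0038 after 1 day and 0.03 after 5 days. Under these names the list did not hold Gm3776 and Gm10639, protein-coding neighbours of Gsta1. The listed Gsta5 and Gsta13 had no entry here and no position among the RefSeq genes used. Whether they are Gm10639 and Gm3776 under other names was not checked. The counts and medians of the 22 thus leave out Gm3776 and Gm10639, which also changed with smoke. Gm3776 was higher in smoke-exposed mice by 1.85 ± 0.12 (SE, adjusted p = 9.09e-15) and 1.06 ± 0.11 (SE, adjusted p = 2.11e-08) after 1 and 5 days. Gm10639 was higher by 0.48 ± 0.07 (SE, adjusted p = 3.69e-06) after 1 day, and differed by 0.31 after 5 days, below 1.3-fold. With genotype, Hpgds, the sigma-class member that makes prostaglandin D2, was higher in βENaC mice by 0.73 ± 0.13 (SE, adjusted p = 0.000136) and 0.76 ± 0.10 (SE, adjusted p = 4.31e-07) after 1 and 5 days. Gstp3, the third gene of the pi cluster, was higher in βENaC mice after 5 days by 0.42 ± 0.11 (SE, adjusted p = 0.00937).

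Genes listed for glutathione synthesis and reduction, with related redox genes such as Txnrd1, were also raised by smoke. Of 12 measured, 6 were called as higher after 1 day and 5 after 5 days, and none as lower. Slc7a11, which imports cystine for glutathione synthesis, ran from 4.22 to 8.69 (median 4.95) in sham-exposed and from 7.88 to 10.07 (median 9.21) in smoke-exposed mice after 1 day. Its difference was 3.65 ± 0.27 (SE, adjusted p = 3.1e-13) after 1 day and 1.69 ± 0.22 (SE, adjusted p = 1.22e-06) after 5 days. Gclm and Gclc, the modifier and catalytic subunits of the rate-limiting enzyme of glutathione synthesis, were higher by 1.19 and 1.06 after 1 day and by 0.79 and 0.40 after 5 days. Txnrd1, thioredoxin reductase, was higher by 0.83 and 0.60. Gclc, Gclm and Slc7a11 shared with Gsta1 a smaller smoke difference after 5 days than after 1 day (terms of -0.64, -0.42 and -1.86, adjusted p from 0.0177 to 0.0297).

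Of the 8 measured glutathione peroxidases, none was called for smoke at either duration in limma's fits. By adjusted p alone 1 was lower after 1 day, and before adjustment 1 passed after 1 day and 3 after 5 days. Among 21 measured genes of conjugate export and mercapturate formation, 1 was called, Abcc1, a pump for glutathione conjugates, higher by 0.39 ± 0.05 (SE, adjusted p = 5.41e-07) after 1 day. Of 7 NRF2 regulators, Maff, a small MAF protein, was called as higher at both durations (0.52 and 0.49). Of 8 AHR regulators and targets, 5 were called as higher after 1 day and 4 after 5 days. Their largest differences were those of Cyp1a1 (4.11 and 4.59), Cyp1b1 (3.16 and 3.01), Nqo1 (2.87 and 2.64) and Aldh3a1 (2.84 and 2.39), all larger than that of any member.

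Members also varied together from mouse to mouse beyond what the groups set. Values were centred within the 16 groups, and 21 pairs of members and the 7 members against the club cell marker mean were correlated over 79 mice, 28 relations in all. All 21 pairs had a positive Pearson r, and 20 of them had an adjusted p below 0.05 in a two-sided permutation test with 100000 resamples within groups. The share of other gene pairs that would pass was not computed, so the count does not set the members apart from other genes. The highest were Gsta3 with Gsta4 (r = 0.748, Spearman rho = 0.723) and Gsta4 with Gsto1 (r = 0.702, rho = 0.713), each with p = 1e-05, the smallest these permutations can give, adjusted p of 3.5e-05 for r and 4e-05 for rho. Without the 2 mice farthest from the median of the first gene r was 0.716 and 0.664. The lowest was Gsta1 with Mgst1 (r = 0.2, p = 0.079, adjusted p = 0.0819, rho = 0.185, p = 0.123, adjusted p = 0.128), and r was 0.153 without the 2 farthest mice.

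The club cell marker mean was correlated with 6 of the 7 members by adjusted p. The share of all genes correlated with it was not computed. For Gsta3 r was 0.744 and rho 0.659, and for Gsta4 r was 0.702 and rho 0.643, each with p = 1e-05 and adjusted p of 3.5e-05 for r and 4e-05 for rho. Without the 2 farthest mice r was 0.658 and 0.655. For Gsta1 r was 0.17 (p = 0.155, adjusted p = 0.155) and rho 0.106 (p = 0.397, adjusted p = 0.397), with r = 0.115 without the 2 farthest mice. The share of airway tissue in each piece of lung was not measured, and its part in these correlations was not tested.

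**Figure D5:**
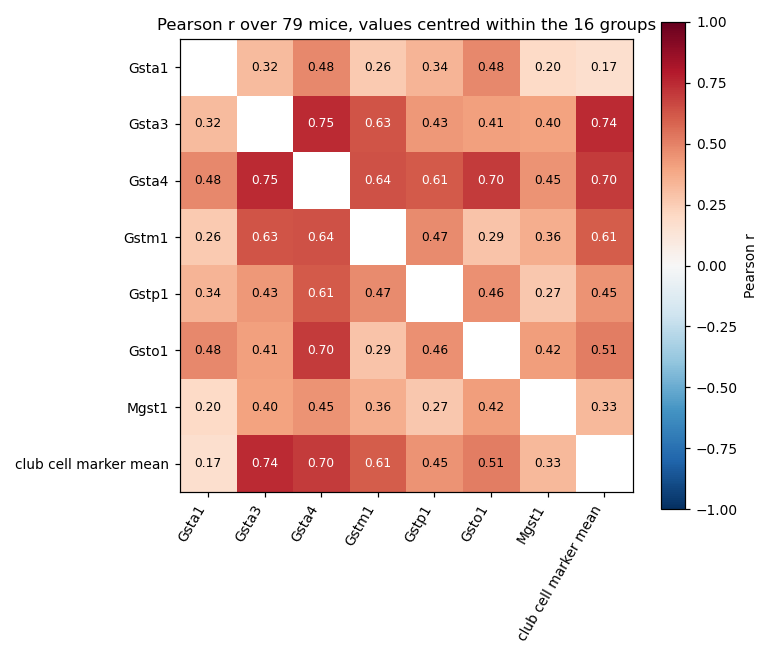
Pearson correlation between members, and between members and the mean of 5 club cell markers, over 79 mice after centring each value within its group of genotype, exposure, sex and duration. All 28 values are above 0, and the darkest cells are Gsta3 with Gsta4 (0.75), Gsta3 with the marker mean (0.74) and Gsta4 with Gsto1 and with the marker mean (0.70).

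The genes whose pattern over the 16 group means was most like 6 of the members were named by Pearson r, as a description over 16 means that share the smoke contrast. For Gsta1 they were Gm3776 (r = 0.961) and Gclm (r = 0.941). Gm3776 and Gm10639 lie next to Gsta1 in the alpha cluster on chromosome 9, between Gsta1 and Gsta2. For Gsta3 they were Tef (0.962), a circadian transcription factor, and Gm4956 (0.956), a transcribed pseudogene next to Gsta3 on chromosome 1. Signal of these copies and of their neighbours may be shared, so the values of Gsta1 and Gsta3 are uncertain as to which copy they measure. For Gsta4 they were Entpd5 (0.99) and Fgfbp1 (0.969), and for Gstp1 Mall (0.959) and Krt80 (0.95). For Gsto1 they were Cbr3 (0.961), a carbonyl reductase, and Cyp1b1 (0.959), a cytochrome P450 induced through AHR. For Mgst1 they were Osgepl1 (0.95) and Dsg2 (0.949), a desmosomal cadherin.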

How the data were processed

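The authors hybridised whole lung RNA to Affymetrix moGene2.1 arrays, 1 per mouse, and deposited log2 intensities made by RMA (background and GC correction, quantile normalization, summary by median polish), after 1 array judged mislabelled had been removed. Per the labels, Affymetrix Expression Console 1.4 and Partek 6.6 were used; a genome build is not given in the sources used here. The deposited values were used unchanged, and no column was left unmapped. Arrays carry no counts, and their number limits the precision. RMA pulls low intensities together, so fold changes of dim genes such as Gsta1 can be understated. Entries were named from the study's supplementary tables or RefSeq (GRCm38.p6). Of 31350 entries, 21837 had a symbol and 9513 had none.

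Each duration was fitted in R 4.3.3 with limma 3.58.1 (lmFit, eBayes) on genotype, exposure and sex, with Benjamini-Hochberg adjustment over all genes. Interactions were added as terms, and duration was tested in all mice. Correlations used numpy 2.4.6 and scipy 1.17.1. The named genes were the members, Scnn1b, from each list up to 4 genes with the largest called exposure difference, family members called for genotype or sex, and the 2 genes most like each member (those of Gstm1 are not reported here). Markers were named besides, and Gm10639, Gstm5, Gstk1, Gstz1, Alox5ap and Ahrr after their values were seen. The members and lists were chosen with earlier results of these data known. Alternatives were other normalizations, models, filters, thresholds, a replicate block and each mouse left out. Same-numbered mice of different groups did not deviate together on average (mean r = 0.00864 over 570 pairs, single pairs from -0.42 to 0.538). The main fits did not pair mice by number. Whether same-numbered mice were matched cannot be told from these correlations. Litters are not given in the labels. The exposure fits were tried on simulated data for all 31350 genes, with noise drawn independently for each gene. At a log2 change of 0.5, 95% (1 day) and 96% (5 days) of changed genes were recovered, and at 1 all of them. There were 0 false calls past both thresholds. Recovery of genotype, sex, interaction and duration differences was not simulated.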

Additional observations from a re-analysis of the deposited data

Results flagged for a closer look

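In 12 of 112 tests of a member within a group of mice, the highest or lowest mouse stood apart from the others by Dixon's test, which chance does in about 1 of 20 groups. Gsta3 had 4 such mice, βENaC smoke-exposed females at 9.46 after 1 day and at 8.54 after 5 days, a βENaC smoke-exposed male at 8.62 after 1 day and a WT smoke-exposed female at 9.27 after 1 day. Without the βENaC female at 8.54, the 5-day smoke difference of Gsta3 was 0.87 and its genotype difference -0.48. Gstm1 had 4, all lowest of their group after 5 days, at 7.36 (βENaC smoke-exposed male), 6.96 (WT sham-exposed female), 7.26 (WT sham-exposed male) and 7.69 (WT smoke-exposed female). Mgst1 had 2, a βENaC smoke-exposed female at 7.95 and a βENaC smoke-exposed male at 7.64, both after 5 days, the second being the male that was lowest for Gstm1. Gsta1 had 1, a WT sham-exposed male at 3.71 after 1 day, and Gsto1 had 1, a βENaC sham-exposed female at 9.77 after 1 day.

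The smoke difference was unequal between durations, by the exposure by duration term, for Gsta1 (-1.06) and Mgst1 (0.23) among the members, for Gstz1 (0.30) in the rest of the family, and for Gclc (-0.64), Gclm (-0.42), Slc7a11 (-1.86) and Ahrr (-0.31) in the other lists. The smoke difference of Slc7a11 after 1 day was smaller in βENaC than in WT mice, by the exposure by genotype term (-2.30).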

How the results depend on the processing

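The counts of members called for exposure (4 after 1 day, 5 after 5 days), for exposure by duration (2), for sex (0) and for an interaction with genotype or sex (0) were unchanged when any 1 mouse was left out, with ranges of 4 to 4, 5 to 5, 2 to 2, 0 to 0 and 0 to 0. With the replicate block, which pairs mice by number only, all counts of members stayed as they were (4, 5, 0 and 1 for genotype, 2, 0). A 1.5-fold threshold left 3 members called for exposure after 1 day (without Gstp1), 1 after 5 days (Gsta3) and 0 for genotype, 0 of the other family members at both durations and 8 of the glutathione, NRF2 and AHR genes after 1 day instead of 13. No fold threshold gave 2 and 3 members called for genotype after 1 and 5 days, 6 (2 higher, 4 lower) and 4 (all higher) of the other family members, and 26 and 27 of the glutathione, NRF2 and AHR genes. Centring each array on its median gave 1 member (Gsta3) called for genotype after 1 day instead of 0, as did leaving out any 1 of 8 mice (range 0 to 1, with Gsta3 between -0.40 and -0.33 over all mice left out in turn). The 8 were βENaC smoke-exposed males 4 and 5, βENaC sham-exposed males 4 and 5, βENaC sham-exposed female 4, WT sham-exposed females 2 and 3, and WT smoke-exposed female 5. Sham-exposed mice alone gave 2 members for genotype after 5 days (Gsta3 and Gsta4). Adding genotype and sex gave 3 members for exposure by duration (with Gsta3), and adjusting within the pooled exposure-response genes gave 2, Gsta1 and Gsta3. Of the 28 correlations, 26 passed, 24 after centring of each array and 23 without the 2 farthest mice. Signs turned only in differences that passed no threshold, the largest that of Gsta1 by sex after 5 days (0.24): Gsto1 by genotype after 1 day (-0.0077 centred, -0.0037 normalized again, -0.0089 to 0.031 with a mouse left out), Gsta4 by sex after 1 day (-0.095) and Gsta1 by sex after 5 days (-0.083) in sham-exposed mice. The same held after 5 days for exposure by genotype of Gstp1 (0.051 with array weights, 0.0080 with the block, -0.052 to 0.039 with a mouse left out) and Gsto1 (0.011 with array weights), and for exposure by sex of Gsto1 (-0.00063 with array weights, -0.023 to 0.055) and Gstm1 (0.0044 with the block, -0.044 to 0.054). With a mouse left out, the ranges also crossed 0 for exposure by genotype of Mgst1 (-0.022 to 0.017 after 1 day, -0.00031 to 0.060 after 5 days) and Gsta1 (-0.087 to 0.12 after 5 days), exposure by sex of Gstp1 (-0.022 to 0.081 after 5 days) and Gsta3 (-0.043 to 0.11 after 1 day), exposure by duration of Gstm1 (-0.0050 to 0.048), sex of Gstm1 after 5 days (-0.047 to 0.0021) and genotype of Gstp1 after 1 day (-0.033 to 0.00068). The causes were not tested. No member had a second entry, so the alternative of the next highest entry was not run. Array signal over background was not analysed here.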
